A study of Homo sapiens with 8 samples.

Results

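A set of 10 genes that control the G1 phase was followed through ribosome profiling of human BJ fibroblasts: the CDK inhibitors CDKN1B, CDKN1C, CDKN2B, CDKN2C and CDKN2D, and the G1 cyclins CCND1, CCND2, CCND3, CCNE1 and CCNE2. They were found by gene name in the deposited tables, which name 11940 genes in all. Of the 10 members, 8 were listed both among the 11079 genes with 4-OHT and among the 11546 without it. CDKN1B, which encodes p27, and CCND2 were not listed in either table. Ribosome profiling sequences the stretches of mRNA that a translating ribosome protects. A value here reflects the footprints assigned to a gene, relative to all those of its library. It moves with the amount of mRNA and with the number of ribosomes on each copy. BJ is an established line of skin fibroblasts, and all cells carried the label BJ-HRAS, in knockout and WT clones alike and with or without 4-OHT.

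The cells were knockout (KO) for SNORA13, a small nucleolar RNA (clones 66 and 69), or wild type (WT, clones 15 and 54). Every clone was profiled after 7 days of 100 nM (Z)-4-hydroxytamoxifen (4-OHT) and without it. The 4 groups were therefore KO with 4-OHT, KO without 4-OHT, WT with 4-OHT and WT without 4-OHT, each of 2 libraries from 2 clones. 4-OHT activates engineered proteins that carry a mutated estrogen receptor ligand-binding domain, and the labels do not say which protein it acts on here. Genotype and the clones that carry it cannot be told apart, and neither can 4-OHT and any batch in which the libraries of one table were made. SNORA13, HRAS and CDKN2A were not listed, so neither the knockout nor the level of HRAS was checked on these values.

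Cyclins are the regulatory subunits that switch on cyclin-dependent kinases (CDKs). D-type cyclins pair with CDK4 and CDK6 in response to growth signals, E-type cyclins pair with CDK2 closer to S phase, and both kinases phosphorylate the retinoblastoma protein so that E2F factors can turn on replication genes. The INK4 inhibitors p15 (CDKN2B), p18 (CDKN2C) and p19 (CDKN2D) bind CDK4 and CDK6, while the CIP/KIP inhibitors, p57 (CDKN1C) among them, bind a wider range of cyclin-CDK complexes. In fibroblasts that enter senescence after RAS activation, cells stop dividing, and both inhibitors and cyclin D1 are known to accumulate.

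Values are RPKM over the whole span of a gene, introns included, so levels of different genes are not ranked against each other, and where reads of several genes are added up below, the shares are shares of reads and depend on length. The reads behind each value were recovered from the values and are approximate. The libraries held between 190732 and 1710242 recovered reads. The shallowest by far was KO clone 66 with 4-OHT, in which 28.6% of the listed genes were at 0, against 4.28% to 16.6% in the others. Among the 64 member values, 28 rested on under 10 reads and 3 were at 0. The 14 fibroblast markers were all listed, and they took 2.77% to 3.33% of the reads with 4-OHT and 6.90% to 9.05% without it. Markers of keratinocytes, other epithelia, melanocytes, endothelium and leukocytes took at most 0.0408% per cell type in any library. Only 1 to 3 of the 6 markers of each of these cell types were listed, so the shares sum over unlike numbers of genes. The part of the fibroblast marker shift in the 4-OHT results below was not tested. In such bulk cultures, fewer cells using a gene and fewer footprints per cell cannot be told apart.

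With 4-OHT, cyclin D1 was the member that rose in both genotypes by the largest fitted change, and p18 (CDKN2C) fell in both. The rise of p19 (CDKN2D) was called in KO clones and that of p15 (CDKN2B) in WT clones. Differences were fitted with limma-trend on log2(RPKM + 1) across all genes with at least 10 reads in at least 2 libraries, and called at a Benjamini-Hochberg adjusted p under 0.05. For p19 and p15 both clones of the other genotype were also higher with 4-OHT, without a call. The difference between the genotypes in the 4-OHT change was not called for either gene (limma-trend, adjusted p = 0.856 each). The p15 call in WT clones was lost under 4 of 16 alternative fits. In KO clones 3 of the 6 tested members were called with against without 4-OHT, where 28.1% of all 8663 tested genes were called; 2 members were higher, as 17.4% of all genes were, and 1 was lower, as 10.7% were. In WT clones 3 of the same 6 were called, where 21.9% of all genes were; 2 members were higher, as 13.8% of all genes were, and 1 was lower, as 8.17% were. By limma-voom, a test on the recovered reads, 30.0% of all genes were called in KO clones, 3 members among them, and 32.6% in WT clones, 4 members among them. CDKN1C and CCNE1 had too few reads to be tested, and CDKN2C passed the filter only through its libraries without 4-OHT, so these counts describe the members and say nothing about the family as a whole. The 2 comparisons use different libraries, and they share 1 variance estimate per gene.

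**Figure D1:**
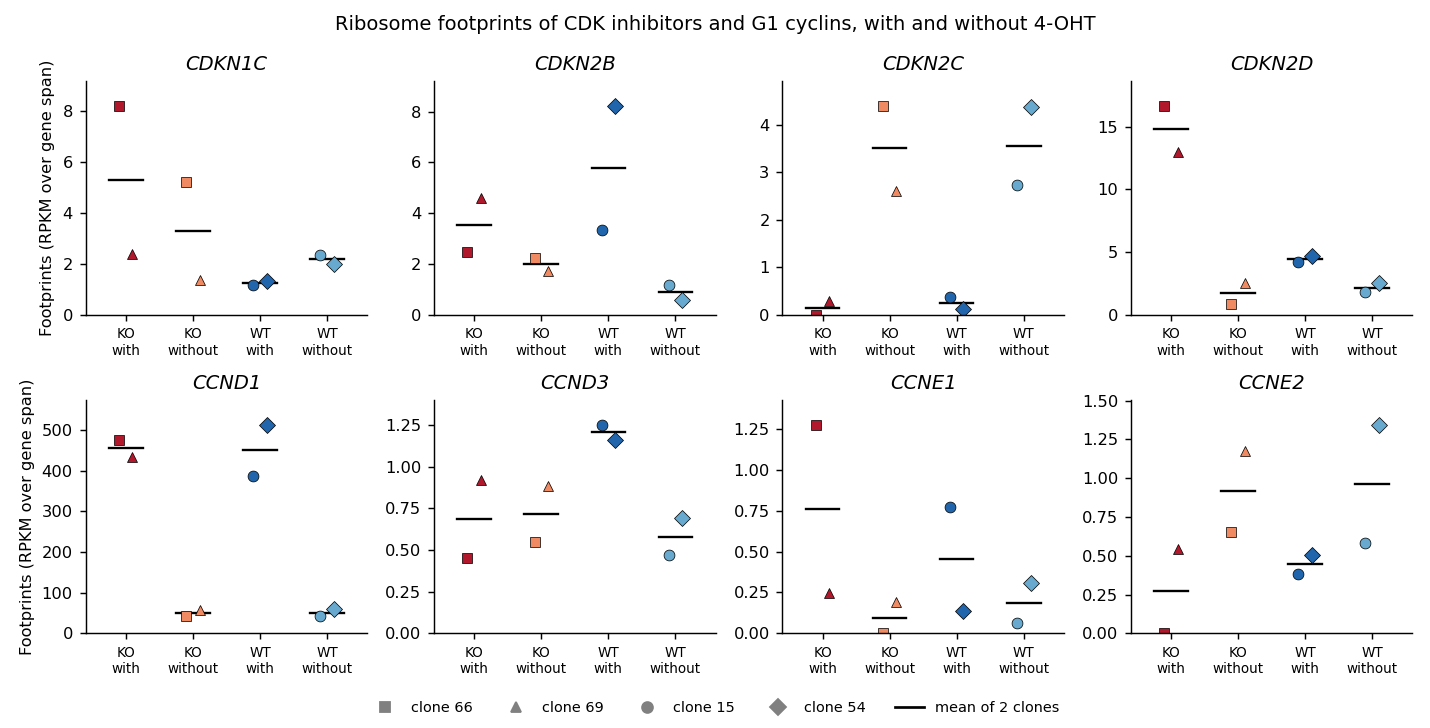
Footprints of the 8 listed members in every library, in RPKM over the gene span on a linear axis from 0, by group (KO with, KO without, WT with and WT without 4-OHT). Each point is 1 clone and each bar the mean of 2 clones. CCND1 lies between 388 and 514 RPKM in all 4 libraries with 4-OHT and between 42.0 and 59.4 RPKM in all 4 without it, and CDKN2C lies below 0.4 RPKM with 4-OHT and above 2.6 RPKM without it.

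Cyclin D1 (CCND1; ENSG00000110092.3, GRCh38.p14 chr11:69641156-69654474) is the D-type cyclin through which growth factor signals most directly reach CDK4 and CDK6. In KO clones it measured 475 RPKM (clone 66) and 435 RPKM (clone 69) with 4-OHT, against 43.4 and 57.1 RPKM in the same clones without it. In WT clones it measured 388 RPKM (clone 15) and 514 RPKM (clone 54) with 4-OHT, against 42.0 and 59.4 RPKM without it. All 4 libraries with 4-OHT were far above all 4 without, and 20.9% of the 10685 genes in both tables also had all 4 above all 4. In each 4-OHT condition the KO and WT clones overlapped. Its share of all recovered reads was 0.633% and 0.579% in KO clones with 4-OHT, against 0.0578% and 0.0760% without it, and 0.517% and 0.684% in WT clones with 4-OHT, against 0.0560% and 0.0791% without it. The fitted log2 change was 3.17 ± 0.25 in KO clones (SE; adjusted p = 3.3e-04) and 3.13 ± 0.25 in WT clones (adjusted p = 4.63e-04). The pooled RPM (recovered reads as a share of the library total, the usual RPM scale) was 8.43 times as high with as without 4-OHT in KO clones (95% counting interval 8.01 to 8.88) and 8.67 times as high in WT clones (8.20 to 9.17). The difference between the genotypes was near 0, with a log2 difference of 0.03 with 4-OHT (95% interval -0.60 to 0.65) and -0.01 without it (-0.59 to 0.58), KO minus WT. These intervals still leave room for a change of about 0.6 on the log2 scale either way.

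Cyclin D3 (CCND3; ENSG00000112576.12) is a second D-type cyclin with the same kinase partners. In KO clones it measured 0.454 RPKM (clone 66) and 0.917 RPKM (clone 69) with 4-OHT, against 0.547 and 0.886 RPKM without it, so that the groups overlapped. In WT clones it measured 1.25 RPKM (clone 15) and 1.16 RPKM (clone 54) with 4-OHT, against 0.472 and 0.690 RPKM without it, and both clones were higher with 4-OHT. The WT change, 0.48 ± 0.20 on the log2(RPKM + 1) scale, missed the threshold (adjusted p = 0.122) but was called by limma-voom on the recovered reads (0.90, adjusted p = 0.0179). In KO clones the fitted change was -0.03 ± 0.20 (adjusted p = 0.917). With 4-OHT both KO clones lay below both WT clones, and that difference of -0.40 ± 0.23, KO minus WT, was not called (adjusted p = 0.823). The 4-OHT change in KO clones minus that in WT clones was -0.52 ± 0.28 (adjusted p = 0.856). The CCND3 span of 115103 bases, mostly intron, makes its RPKM small, and 22.7% of it overlaps an annotated long non-coding RNA.

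The share of cyclin D1 among the footprints of both listed D-type cyclins moved with CCND1, a summary chosen after its values were seen. In KO clones CCND1 took 99.2% and 98.2% of these reads with 4-OHT, against 90.1% and 88.2% without it. In WT clones the shares were 97.3% and 98.1% with 4-OHT, against 91.1% and 90.8% without it. All 4 libraries with 4-OHT were above all 4 without it, and the Wilson 95% intervals with 4-OHT (lowest bound 96.9%) lay above those without it (highest bound 92.9%). These intervals cover counting error only, and the shares follow from the CCND1 and CCND3 values above, so they are no separate result.

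The E-type cyclins had few footprints in every library. CCNE1 (ENSG00000105173.14) rested on 3 and 3 reads in KO clones 66 and 69 with 4-OHT, against 0 and 4 without it, and on 16 and 1 reads in WT clones 15 and 54 with 4-OHT, against 1 and 3 without it. These reads gave 1.28 and 0.248 RPKM in KO clones with 4-OHT, against 0 and 0.190 RPKM without it, and 0.770 and 0.138 RPKM in WT clones with 4-OHT, against 0.0614 and 0.308 RPKM without it. The WT groups overlapped, the KO groups did not, and 3 reads alone would give 1.28 RPKM in KO clone 66 with 4-OHT, and CCNE1 did not reach the read filter. Fitted without a filter, its changes with 4-OHT were 0.63 ± 0.33 in KO clones (adjusted p = 0.229) and 0.27 ± 0.33 in WT clones (adjusted p = 0.661). The pooled read ratio, with over without 4-OHT, was 3.34 in KO clones (95% counting interval 0.79 to 16.1) and 3.95 in WT clones (1.29 to 16.1), where 16 of the 17 reads with 4-OHT came from clone 15 and clone 54 was lower with 4-OHT. CCNE2 (ENSG00000175305.17) measured 0 RPKM (clone 66) and 0.542 RPKM (clone 69) in KO clones with 4-OHT, against 0.656 and 1.18 RPKM without it. In WT clones it measured 0.386 RPKM (clone 15) and 0.502 RPKM (clone 54) with 4-OHT, against 0.582 and 1.35 RPKM without it. Every clone had a lower CCNE2 value with 4-OHT than without it, on at most 33 reads, and the fitted changes of -0.61 ± 0.27 in KO clones (adjusted p = 0.129) and -0.42 ± 0.27 in WT clones (adjusted p = 0.317) were not called. The 0 in KO clone 66 with 4-OHT allows up to 0.955 RPKM, the value of 3 reads there, which is above the 0.656 RPKM of the same clone without 4-OHT. Parts of the CCNE2 span are shared with INTS8 (9.2%) and NDUFAF6 (5.4%), so reads there cannot be assigned to CCNE2 with certainty.

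Among the INK4 inhibitors, p18 fell in both genotypes, p19 was called higher in KO clones alone and p15 in WT clones alone, and these genotype differences were not called. The promoter windows of these 3 genes, from 250 bases before to 50 after a transcript start (RefSeq, GRCh38.p14), are shown because their calls with 4-OHT went in different directions. They are CDKN2B at chr9:22009256-22009555 on the minus strand, CDKN2C at chr1:50968456-50968755 on the plus strand and CDKN2D at chr19:10568930-10569229 on the minus strand. Capitals mark the GC box GGGCGG on either strand, CCGCCC as read here, with overlapping matches counted separately.
CDKN2B: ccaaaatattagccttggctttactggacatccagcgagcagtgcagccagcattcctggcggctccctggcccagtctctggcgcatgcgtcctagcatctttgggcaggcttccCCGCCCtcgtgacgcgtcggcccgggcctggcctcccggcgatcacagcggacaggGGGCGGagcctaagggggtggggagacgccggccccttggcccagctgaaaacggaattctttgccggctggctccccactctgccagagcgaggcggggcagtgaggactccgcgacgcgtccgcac
CDKN2C: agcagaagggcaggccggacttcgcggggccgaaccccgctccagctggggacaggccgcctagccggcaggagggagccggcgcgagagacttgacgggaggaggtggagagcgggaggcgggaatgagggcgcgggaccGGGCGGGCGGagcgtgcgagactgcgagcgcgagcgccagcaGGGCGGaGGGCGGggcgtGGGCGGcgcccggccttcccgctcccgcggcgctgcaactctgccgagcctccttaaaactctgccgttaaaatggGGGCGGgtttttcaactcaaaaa
CDKN2D: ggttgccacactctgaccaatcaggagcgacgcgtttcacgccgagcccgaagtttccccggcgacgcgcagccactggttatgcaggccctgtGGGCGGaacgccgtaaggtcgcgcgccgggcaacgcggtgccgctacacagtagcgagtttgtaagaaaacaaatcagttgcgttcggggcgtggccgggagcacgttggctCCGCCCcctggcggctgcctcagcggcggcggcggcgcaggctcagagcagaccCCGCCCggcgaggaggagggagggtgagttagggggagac
The GC box occurred 2 times in the CDKN2B window, 6 times in this CDKN2C window and 3 times in the CDKN2D window, and 44.95% of all 35116 RefSeq promoter windows of this length held at least 1. CDKN2C has 2 further annotated starts, whose windows held 0 and 1 GC boxes. No window of CDKN1C, CCND1, CCND2 or CCNE2 was searched, so the spellings below were not looked for in these members. The windows searched were those of 6 of the 10 members, CDKN1B, CDKN2B, CDKN2C, CDKN2D, CCND3 and CCNE1, 10 windows in all. None of the 10 held the E2F spellings TTTCGCGC, TTTGGCGC, TTTCCCGC or TTTGCCGC on either strand (present in 3.315% of all windows), TATAAA (11.53%) or the AP-1 spellings TGAGTCA and TGACTCA (4.949%). A match or its absence describes these letters in these windows only.

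CDKN2C (ENSG00000123080.11, chr1:50960745-50974634) encodes p18, an INK4 inhibitor of CDK4 and CDK6. In KO clones it was at 0 RPKM (clone 66, 0 reads) and 0.293 RPKM (clone 69, 4 reads) with 4-OHT, against 4.39 RPKM (55 reads) and 2.61 RPKM (62 reads) in the same clones without it. In the WT clones it had 0.384 RPKM (clone 15, 9 reads) and 0.122 RPKM (clone 54, 1 read) with 4-OHT, against 2.72 RPKM (50 reads) and 4.37 RPKM (48 reads) without it. All 4 libraries with 4-OHT lay below all 4 without it, a pattern that 13.9% of the 10685 genes in both tables showed. A count of 3 reads would have given 1.13 RPKM in the shallow library of KO clone 66 with 4-OHT, still below the 4.39 RPKM of that clone without it. The fitted change was -1.96 ± 0.30 in KO clones (adjusted p = 0.00348) and -1.84 ± 0.30 in WT clones (adjusted p = 0.00494). The added 1 holds these changes back, and the ratio of pooled RPM, with over without 4-OHT, was 0.0762 in KO clones (95% counting interval 0.0204 to 0.200) and 0.0947 in WT clones (0.0441 to 0.182). Without 4-OHT the genotypes differed by -0.02 ± 0.29, KO minus WT (95% interval -0.73 to 0.69), and the difference between the 4-OHT changes was -0.11 ± 0.42 (-1.09 to 0.86).

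CDKN2D (ENSG00000129355.6, chr19:10566460-10568979) encodes p19, the INK4 inhibitor known to vary through the cell cycle in mouse cells. It measured 16.6 RPKM (clone 66, 8 reads) and 12.9 RPKM (clone 69, 32 reads) in KO clones with 4-OHT, against 0.881 RPKM (2 reads) and 2.56 RPKM (11 reads) without it. The WT clones had 4.24 RPKM (clone 15, 18 reads) and 4.72 RPKM (clone 54, 7 reads) with 4-OHT, against 1.80 RPKM (6 reads) and 2.51 RPKM (5 reads) without it. All 4 libraries with 4-OHT lay above all 4 without it, as for 20.9% of the genes in both tables, and with 4-OHT both KO clones lay above both WT clones. In KO clones the change was 2.60 ± 0.32 (adjusted p = 0.00158), and the pooled RPM was 6.85 times as high with 4-OHT (95% counting interval 3.59 to 13.97). In WT clones the change was 0.80 ± 0.32 and was not called (adjusted p = 0.119), and the pooled RPM was 2.11 times as high (95% counting interval 1.001 to 4.75).

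The genotypes were therefore compared directly for CDKN2D. With 4-OHT it was 1.52 ± 0.25 higher in KO than in WT clones on the log2(RPKM + 1) scale (95% interval 0.91 to 2.13), and the pooled RPM was 3.10 times as high (counting interval 1.84 to 5.34). The unadjusted p was 9.67e-04, and after adjustment over the 7630 genes tested it was 0.823. On the recovered reads limma-voom gave 1.58 ± 0.57 (adjusted p = 0.335). The difference between the 4-OHT changes of KO and WT clones was 1.80 ± 0.45 (95% interval 0.74 to 2.85, unadjusted p = 0.00475, adjusted p = 0.856). No difference between the genotypes was called for CDKN2D by either tool, although the clones did not overlap. It passed the read filter in 2 of the 4 fits that leave out 1 library with 4-OHT, and was higher in KO clones in both (1.58 without WT clone 54, adjusted p = 1.0, and 1.35 without KO clone 66, adjusted p = 0.438).

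CDKN2B (ENSG00000147883.11, chr9:22002903-22009313) encodes p15, an INK4 inhibitor that TGF-beta signalling is known to induce. In KO clones it measured 2.46 RPKM (clone 66, 3 reads) and 4.61 RPKM (clone 69, 29 reads) with 4-OHT, against 2.25 RPKM (13 reads) and 1.74 RPKM (19 reads) without it. The WT clones had 3.33 RPKM (clone 15, 36 reads) and 8.22 RPKM (clone 54, 31 reads) with 4-OHT, against 1.18 RPKM (10 reads) and 0.593 RPKM (3 reads) without it. The libraries with 4-OHT were above those without it in both genotypes, narrowly in KO clone 66. In WT clones CDKN2B rose by 1.76 ± 0.40 (adjusted p = 0.0203), with 4.79 times the pooled RPM (95% counting interval 2.62 to 9.45). That call was lost without WT clone 54 with 4-OHT (1.22, adjusted p = 0.109), without WT clone 15 without 4-OHT (1.99, adjusted p = 0.0629) and without WT clone 54 without 4-OHT (1.53, adjusted p = 0.128), and it was kept without WT clone 15 with 4-OHT. In KO clones the change was 0.56 ± 0.40 (adjusted p = 0.329), with 2.23 times the pooled RPM (95% counting interval 1.32 to 3.76). Without 4-OHT both KO clones lay above both WT clones by 0.68 ± 0.22 (adjusted p = 0.579), and with 4-OHT the groups overlapped (-0.52 ± 0.45, KO minus WT, adjusted p = 0.829). The difference between the 4-OHT changes, -1.20 ± 0.57, was not called (adjusted p = 0.856). CDKN2B lies wholly inside the span of the antisense RNA gene CDKN2B-AS1, which was not listed, and as the strand used in counting is not given in the sources used here, reads of the pair cannot be told apart.

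**Figure D2:**
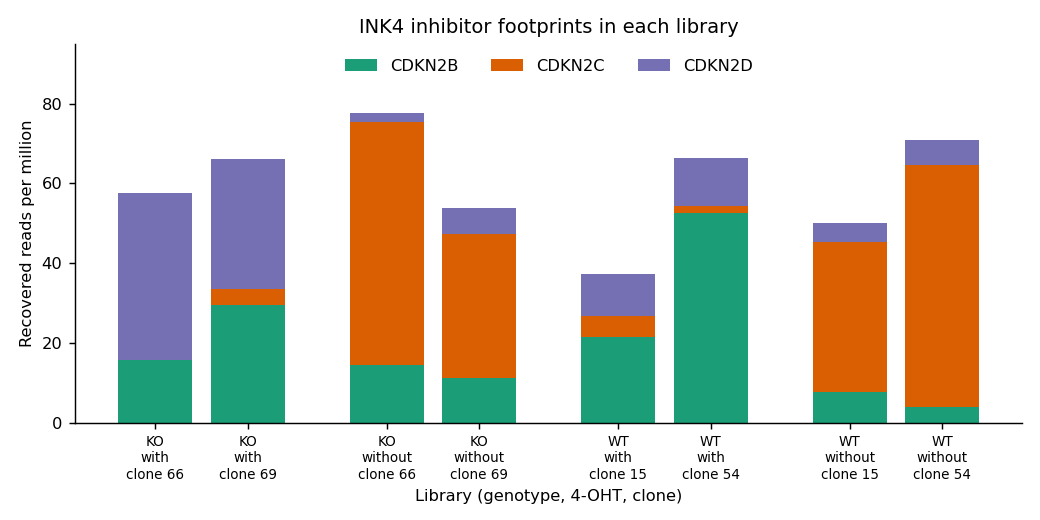
Recovered reads in RPM of CDKN2B, CDKN2C and CDKN2D stacked in each of the 8 libraries, labelled by genotype, 4-OHT and clone. CDKN2C fills at most 14.3% of each bar with 4-OHT and at least 67.4% without it, while the height of the bars, 37.4 to 66.3 RPM with 4-OHT and 49.97 to 77.7 without it, overlaps.

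The reads of the 3 listed INK4 genes were also added up, a summary chosen after the values were seen and not tested. The 3 genes summed to 57.7 (clone 66) and 66.2 (clone 69) RPM in KO clones with 4-OHT, against 77.7 and 53.8 without it. In WT clones they summed to 37.4 (clone 15) and 66.3 (clone 54) with 4-OHT, against 49.97 and 70.9 without it. The groups overlapped in both genotypes, while the shares of CDKN2C did not. CDKN2C made up 0% (0 of 11 reads, Wilson upper bound 25.9%) and 6.15% (4 of 65) of these reads in KO clones with 4-OHT, against 78.6% and 67.4% without it. It made up 14.3% (9 of 63) and 2.56% (1 of 39) in WT clones with 4-OHT, against 75.8% and 85.7% without it. With 4-OHT, CDKN2D held 72.7% and CDKN2B 27.3% of the 11 reads in KO clone 66, and in KO clone 69 they were close, at 49.2% (Wilson interval 37.5% to 61.1%) and 44.6% (33.2% to 56.7%). In WT clones with 4-OHT, CDKN2D held 28.6% (clone 15) and 17.9% (clone 54), and CDKN2B 57.1% and 79.5%. These are shares of reads, not of molecules, since the 3 genes differ in length.

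CDKN1C (ENSG00000129757.13, chr11:2883218-2885775) encodes p57, a CIP/KIP inhibitor from an imprinted locus. In KO clones it measured 8.19 RPKM (clone 66, 4 reads) and 2.39 RPKM (clone 69, 6 reads) with 4-OHT, against 5.20 RPKM (12 reads) and 1.37 RPKM (6 reads) without it. The WT clones had 1.16 RPKM (clone 15, 5 reads) and 1.33 RPKM (clone 54, 2 reads) with 4-OHT, against 2.36 RPKM (8 reads) and 1.98 RPKM (4 reads) without it. The KO groups overlapped and the WT groups did not, and with 4-OHT both KO clones lay above both WT clones. CDKN1C did not reach the read filter. Fitted without a filter, its changes were 0.54 ± 0.58 in KO clones (adjusted p = 0.564) and -0.50 ± 0.58 in WT clones (adjusted p = 0.643). The pooled read ratio of KO over WT clones with 4-OHT was 2.77, with a 95% counting interval of 0.95 to 8.58 that includes 1.

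**Figure D3:**
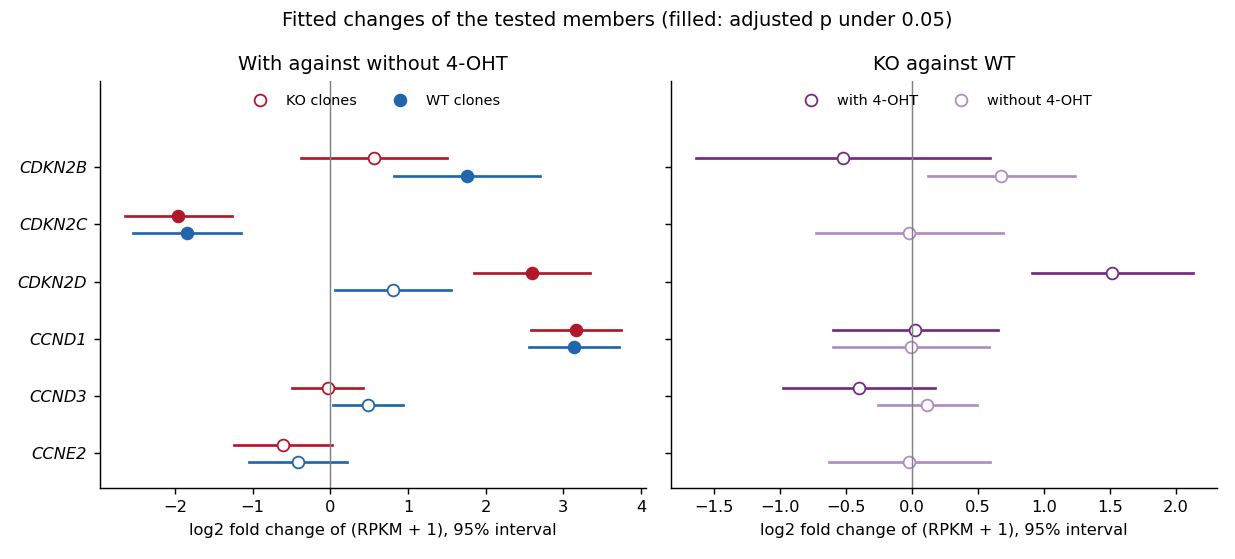
Fitted log2 fold changes of (RPKM + 1) with 95% intervals for the tested members, with against without 4-OHT in KO and WT clones (left) and KO against WT with and without 4-OHT (right). Filled points have an adjusted p under 0.05 and a missing point was not tested in that comparison. CCND1 and CDKN2C are filled in both genotypes on the left, CDKN2D in KO clones and CDKN2B in WT clones, and no point is filled on the right.

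Across the listed members, the clones with and without 4-OHT did not overlap for 6 of 8 in KO clones, where 56.5% of all genes in both tables did not overlap, and for 7 of 8 in WT clones, where 63.5% did not. In KO clones 4 members were higher with 4-OHT and 2 lower, beside 32.1% and 24.4% of all genes, and in WT clones 4 were higher and 3 lower, beside 37.7% and 25.8%. Higher in both genotypes were CDKN2B, CDKN2D and CCND1, and lower in both were CDKN2C and CCNE2. Between genotypes the clones did not overlap for CDKN1C, CDKN2D and CCND3 with 4-OHT (3 of 8, against 34.0% of all genes), and for CDKN2B alone without it (1 of 8, against 35.3%). Between genotypes only 4 members reached the read filter with 4-OHT (CDKN2B, CDKN2D, CCND1 and CCND3). Without it 5 did (CDKN2B, CDKN2C, CCND1, CCND3 and CCNE2). No tested member was called between genotypes, where limma-trend called 0% of the 7630 genes with 4-OHT and 0% of the 8016 without it. At an unadjusted p under 0.05 it counted 357 genes (4.68%) with 4-OHT and 681 (8.50%) without it, and limma-voom called 30 genes (0.393%) with 4-OHT and 66 (0.823%) without it, none of them a member. Of the 8663 genes tested for a difference in the 4-OHT change, limma-trend called 0%, with 448 (5.17%) at an unadjusted p under 0.05, and limma-voom called 5 (0.0577%), again no member. With 2 clones against 2, an exact permutation test of a single gene cannot give a p below 0.333.

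Changes with 4-OHT went with the span of a gene, and the members differ in span. Across the 8663 tested genes Spearman's rho between span and fitted 4-OHT change was -0.22 in KO clones and -0.28 in WT clones, a description across genes that share libraries. Among the 536 tested genes with spans of 2000 to 5000 bases the median change was 0.61 in KO clones and 0.54 in WT clones, and the 90th percentile was 1.96 and 1.82. CDKN2D spans 2520 bases, and its change of 2.60 in KO clones lay above that percentile, while its 0.80 in WT clones lay below it. For the 1403 genes of 10000 to 20000 bases, which include CCND1 and CDKN2C, the medians were 0.22 in KO clones and 0.24 in WT clones, with 90th percentiles of 1.24 and 1.14 that the CCND1 changes exceed. CDKN2B, at 6411 bases, changed by 1.76 in WT clones, beside a median of 0.40 and a 90th percentile of 1.64 for spans of 5000 to 10000 bases. The part of span in these results was not tested.

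The genes around this step of the cycle were read from lists of its kinases, transcription factors, turnover enzymes, targets and inputs. Over all tested genes 17.4% rose and 10.7% fell in KO clones, and 13.8% rose and 8.17% fell in WT clones, and the counts of each list stand beside these shares, with no test of a list. Of the kinases and pocket proteins, 4 were tested and limma-trend called none in either genotype. The median changes were 0.17 in KO clones and 0.13 in WT clones, beside 0.05 and 0.06 over all genes. By limma-voom 1 of the 4 was called higher in WT clones and 0 in KO clones. CDK2, the partner of cyclin E, measured 9.67 and 18.1 RPKM in KO clones with 4-OHT, against 7.25 and 7.95 RPKM without it (adjusted p = 0.116). It measured 17.8 and 21.6 RPKM in WT clones with 4-OHT, against 7.61 and 11.03 RPKM without it (adjusted p = 0.0527). CDK4, RB1 and CDKN2A were not listed.

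**Figure D4:**
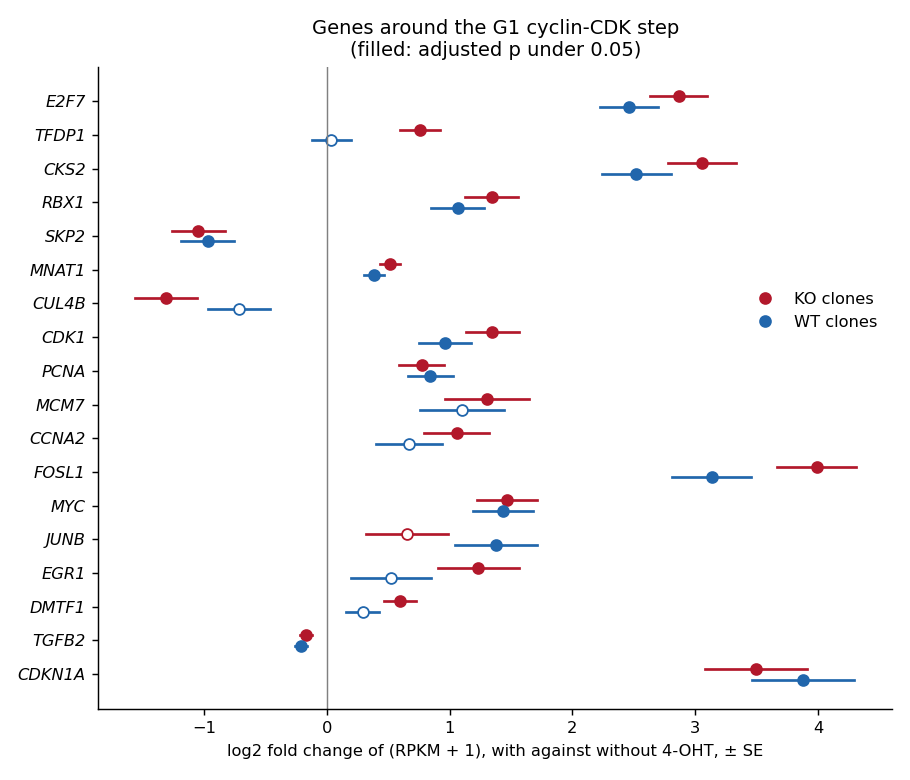
Fitted log2 fold changes of (RPKM + 1) with against without 4-OHT, ± SE, for the named genes around the G1 cyclin-CDK step in KO and WT clones. Filled points have an adjusted p under 0.05. FOSL1, CDKN1A, CKS2 and E2F7 lie furthest to the right in both genotypes, and SKP2, CUL4B and TGFB2 lie left of 0.

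Of the E2F and DP factors, 5 were tested. In KO clones 2 rose, E2F7 and TFDP1, and in WT clones 1 rose, E2F7, with list medians of 0.74 in KO clones and 0.04 in WT clones. E2F7, an E2F family member that represses E2F targets, averaged 7.35 ± 1.81 RPKM in KO clones with 4-OHT, against 0.138 ± 0.159 RPKM without it (SD, n = 2 each), and 5.34 ± 0.62 RPKM in WT clones with 4-OHT, against 0.151 ± 0.052 RPKM without it. The change was 2.87 ± 0.23 in KO clones (adjusted p = 3.92e-04) and 2.46 ± 0.23 in WT clones (adjusted p = 7.85e-04). TFDP1, the DNA-binding partner of E2F factors, rose by 0.76 ± 0.16 in KO clones (adjusted p = 0.0129, lost without KO clone 66 without 4-OHT at 0.64, adjusted p = 0.106) and had a change of 0.04 ± 0.16 in WT clones (adjusted p = 0.898), a difference that was not called (0.72 ± 0.23, adjusted p = 0.856).

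Of 16 tested E2F targets and other S-phase genes, 4 rose in KO clones and 2 in WT clones, none fell, and the list medians were -0.10 in KO clones and 0.16 in WT clones, beside 17.4% and 13.8% of all genes that rose. CDK1, the mitotic kinase, rose in KO clones to 12.3 ± 2.0 RPKM with 4-OHT, against 4.22 ± 0.89 RPKM without it (adjusted p = 0.00411), and in WT clones to 8.53 ± 0.97 RPKM, against 3.87 ± 0.13 RPKM (adjusted p = 0.0176). PCNA, the replication clamp, rose by 0.77 ± 0.18 in KO clones (adjusted p = 0.019) and by 0.84 ± 0.18 in WT clones (adjusted p = 0.016). The WT call of CDK1 was lost without any 1 of the 4 WT libraries (0.86 to 1.07, adjusted p 0.0542 to 0.11). That of PCNA was lost in WT clones without clone 15 without 4-OHT (0.80, adjusted p = 0.101) and without clone 54 with or without 4-OHT (0.71 and 0.89, adjusted p = 0.102 and 0.0798), and in KO clones without clone 66 or 69 without 4-OHT (0.70 and 0.85, adjusted p = 0.104 and 0.0523), and under median-ratio scaling in both (KO 0.46, adjusted p = 0.111; WT 0.59, adjusted p = 0.0633). With limma-voom the KO call of PCNA was lost as well (0.56, adjusted p = 0.0675), and limma-voom called 2 genes of this list lower in each genotype. In KO clones MCM7, a subunit of the replicative helicase, rose by 1.31 ± 0.34 (adjusted p = 0.0277) and cyclin A2 (CCNA2), the S-phase cyclin, by 1.06 ± 0.27 (adjusted p = 0.0251). The MCM7 call was lost under 7 of 16 alternatives, among them median-ratio scaling (1.01, adjusted p = 0.0598), and it was 0.75 without KO clone 66 without 4-OHT (adjusted p = 0.0895). It was also lost without either KO library with 4-OHT (1.40 without clone 66, adjusted p = 0.0575, and 1.22 without clone 69, adjusted p = 0.058) or either WT library without 4-OHT (adjusted p = 0.0511 without clone 15 and 0.0529 without clone 54). The CCNA2 call was lost under 4 of 16, among them median-ratio scaling (0.75, adjusted p = 0.0705), without KO clone 69 with 4-OHT (0.76, adjusted p = 0.0612) and without KO clone 66 without 4-OHT (0.82, adjusted p = 0.144). In WT clones both missed the threshold, MCM7 at 1.10 ± 0.34 (adjusted p = 0.0572) and CCNA2 at 0.67 ± 0.27 (adjusted p = 0.121), and MCM7 in WT clones was called under 7 of 16 alternatives, the clone as a block among them (adjusted p = 0.0481).

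Enzymes that turn over cyclins and inhibitors or activate the kinases moved both ways. Of 13 tested, 3 rose and 3 fell in KO clones, and 3 rose and 1 fell in WT clones, with list medians of 0.00 in KO clones and -0.06 in WT clones. CKS2, a small CDK-binding subunit, averaged 44.3 ± 0.8 RPKM in KO clones with 4-OHT, against 4.52 ± 1.27 RPKM without it, and 20.4 ± 7.5 RPKM in WT clones with 4-OHT, against 2.61 ± 0.20 RPKM without it. SKP2, the F-box protein that directs p27 to degradation, fell by 1.04 ± 0.21 in KO clones (adjusted p = 0.0113) and by 0.97 ± 0.21 in WT clones (adjusted p = 0.0181). It lay between 1.14 and 1.65 RPKM in the libraries with 4-OHT and between 3.13 and 4.20 RPKM in those without it. RBX1, the RING subunit of cullin ligases, rose by 1.34 ± 0.22 in KO clones (adjusted p = 0.00444) and by 1.07 ± 0.22 in WT clones (adjusted p = 0.0128). MNAT1, the assembly factor of the CDK-activating kinase, rose by 0.52 ± 0.08 in KO clones (adjusted p = 0.0043) and by 0.39 ± 0.08 in WT clones (adjusted p = 0.0156). Without any 1 of the 4 WT libraries the WT calls of SKP2 (-0.85 to -1.08, adjusted p 0.0523 to 0.129) and MNAT1 (0.35 to 0.42, adjusted p 0.0566 to 0.123) were lost, and that of RBX1 was lost without 3 of them, clone 15 without 4-OHT (1.03, adjusted p = 0.0815) and clone 54 with or without 4-OHT (0.99 and 1.10, adjusted p = 0.0852 and 0.0729). The KO call of SKP2 was lost without KO clone 69 without 4-OHT (-0.90, adjusted p = 0.0696). The cullin CUL4B fell in KO clones by 1.31 ± 0.25 (adjusted p = 0.00882), and its WT change of -0.72 ± 0.25 (adjusted p = 0.0854) was called by limma-voom (-0.97, adjusted p = 2.07e-04).

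A list of inputs to the D-type cyclins and related genes, DMTF1 among the latter, held 10 tested genes. Limma-trend called 4 of them higher in KO clones and 3 in WT clones, with none called lower. Over all genes 17.4% rose in KO clones and 13.8% in WT clones. The list medians were 0.63 in KO clones and 0.50 in WT clones. By limma-voom 3 genes of this list were called higher and 1 lower in each genotype. FOSL1, an AP-1 subunit that ERK signalling stabilises, measured 52.6 and 48.9 RPKM in KO clones with 4-OHT, against 1.32 and 3.56 RPKM without it, and 43.1 and 44.4 RPKM in WT clones with 4-OHT, against 3.34 and 4.99 RPKM without it. Its 4 libraries with 4-OHT lay above the 4 without it, as did those of 20.9% of the 10685 genes in both tables, CCND1 among them. MYC rose by 1.47 ± 0.24 in KO clones (adjusted p = 0.0049) and by 1.44 ± 0.24 in WT clones (adjusted p = 0.006, lost without WT clone 54 without 4-OHT at 1.25, adjusted p = 0.0541). JUNB rose in WT clones (1.38 ± 0.33, adjusted p = 0.0247) and had a change of 0.66 ± 0.33 in KO clones (adjusted p = 0.178). The WT call of JUNB was lost under median-ratio scaling (adjusted p = 0.0503) and without any 1 of the 4 WT libraries (1.15 to 1.61, adjusted p 0.0515 to 0.145). In KO clones EGR1 rose by 1.24 ± 0.33 (adjusted p = 0.0295), a call lost under 11 of 16 alternatives, among them the clone as a block (adjusted p = 0.0524) and limma-voom (0.74, adjusted p = 0.139). The libraries whose removal ended the EGR1 call were KO clone 66 with 4-OHT (0.86, adjusted p = 0.109), KO clones 66 and 69 without 4-OHT (1.00 and 1.46, adjusted p = 0.159 and 0.0524) and WT clones 15 and 54 without 4-OHT (adjusted p = 0.0537 and 0.0555). DMTF1 rose in KO clones by 0.60 ± 0.13 (adjusted p = 0.0152), a call lost under 5 of 16 alternatives, among them without KO clone 66 or 69 without 4-OHT (0.58 and 0.61, adjusted p = 0.0874 and 0.064).

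TGF-beta signalling is the known inducer of p15. The ligand gene TGFB2 had at most 0.0179 RPKM, the value of 3 reads, in libraries with 4-OHT and at least 0.115 RPKM in those without it, and it passed the read filter only through the libraries without 4-OHT. It was called lower in KO clones (adjusted p = 0.036) and in WT clones (adjusted p = 0.023), but the KO call was lost under 8 of 16 alternatives, among them the clone as a block (adjusted p = 0.0521), and the WT call under 3 of 15. Leaving out 1 library ended the KO call for KO clones 66 and 69 without 4-OHT (-0.18 and -0.16, adjusted p = 0.114 and 0.135), KO clone 66 with 4-OHT (-0.16, adjusted p = 0.0867) and both WT clones with 4-OHT (adjusted p = 0.0652 and 0.0671). It ended the WT call for WT clone 15 with or without 4-OHT (-0.22 and -0.14, adjusted p = 0.0865 and 0.125) and WT clone 54 with 4-OHT (-0.19, adjusted p = 0.135). CDKN1A, the CIP/KIP inhibitor p21, measured 136 and 84.3 RPKM in KO clones with 4-OHT, against 7.03 and 10.4 RPKM without it, and 172 and 129 RPKM in WT clones with 4-OHT, against 5.84 and 14.2 RPKM without it. CDKN1A rose by 3.50 ± 0.42 in KO clones (adjusted p = 0.00138) and by 3.88 ± 0.42 in WT clones (adjusted p = 0.00111). None of the genes named from these lists was called between genotypes or in the difference of the 4-OHT changes by limma-trend.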

How the data were processed

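The deposited tables name no unit, and their values were taken as RPKM from their size and sums. Per the submitters' processing notes reads were aligned with STAR to GRCh38; the sources used here do not give the read counter, its strand setting or the annotation. Value times genomic span (RefSeq GRCh38.p14, matched for all but 106 genes of each table) gave library sums that differed by under 1%. Low values came in steps of 1 read, with 77.7% to 83.2% of them within 0.1 of a whole read, and these steps gave the recovered reads. Recovered reads of single genes are approximate, and 47 of the 64 member values came out within 0.1 of a whole number.

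Tests used limma 3.58.1 in R 4.3.3 (limma-trend on log2(RPKM + 1), genes with at least 10 reads in at least 2 libraries of the fit, Benjamini-Hochberg over all genes, threshold 0.05). The 4-OHT changes and their difference were fitted on all 8 libraries over genes in both tables, and KO against WT on the 4 libraries of one table. The tables were made separately, so differences with against without 4-OHT rest on the deposited scaling. The fits were also run on simulated reads with the same relative spread for every gene, no clone differences and changes in WT clones with 4-OHT only. Since these libraries differ from that setting, the run does not show how the fits behave here. Counting and Wilson intervals are at 95% and cover counting error only, since PCR copies are not independent molecules. The limma p-values rest on the spread between libraries of a group, 1 per clone, moderated across genes. That spread mixes differences between clones, between libraries and counting error. A clone with and without 4-OHT is the same clone, by its number in the labels, so the numbers pair the libraries; same-numbered deviations had a Pearson r of 0.007 in KO clones and 0.146 in WT clones over 8663 genes.

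The members, lists and tests were chosen with earlier results of these data known. All members are described, and from each list at most the 4 called genes with the largest change per genotype are named; CDK2 was added after its values were seen, and the counts of 1 list, that of the TGF-beta pathway, are not reported here. Levels per coding length were not computed, since no coding lengths were used here. Alternatives were another pseudocount, no filter, median-ratio scaling, limma-voom on recovered reads (TMM scaling), the clone as a block, other sets of libraries, and each library left out.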

Additional observations from a re-analysis of the deposited data

Results flagged for a closer look

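CDKN1C (p57) moved in opposite directions in the clones of the 2 genotypes. With against without 4-OHT, the log2(RPKM + 1) value was 0.57 higher in KO clone 66 and 0.52 higher in KO clone 69, and it was lower in WT clones, at -0.64 in clone 15 and -0.35 in clone 54. The mean KO change minus the mean WT change was 1.04. These values rest on 2 to 12 reads per library, the gene did not reach the read filter, and the difference was not tested in the report; fitted without a filter it was 1.04 ± 0.82 (limma-trend, adjusted p = 0.879).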

How the results depend on the processing

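The counts of called members stayed within 1.5 times under every alternative run: 3 to 4 for 4-OHT in KO clones, 2 to 4 in WT clones, and 0 for both genotype comparisons and the difference of the 4-OHT changes. CCND1 and CDKN2C in both genotypes and CDKN2D in KO clones were called, in the same direction, under all 16 alternatives. CDKN2B in WT clones was lost without either WT clone without 4-OHT, without WT clone 54 with 4-OHT, and with limma-voom without the shallowest library (1.89, adjusted p = 0.0571). CCND3 in WT clones was called by all limma-voom fits and with only the 4 WT libraries (adjusted p = 0.0481), and CCNE2 in KO clones without KO clone 69 with 4-OHT (-0.92, adjusted p = 0.0313). With the clone as a fixed replicate block 3 members were called in each genotype, as without the block, and the calls over all genes were 2026 in KO clones, against 2435 without it, and 1574 in WT clones, against 1901. Beyond MCM7, EGR1 and TGFB2 the block changed no limma-trend call among the genes named; with limma-voom it ended that of DMTF1 in KO clones (adjusted p = 0.0515). Clones of the genotypes share no number, and with the clone as a random block 0 members were called between genotypes.

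Over all genes, median-ratio scaling turned the split of calls from 1504 higher and 931 lower to 1008 and 1336 in KO clones, and from 1193 and 708 to 819 and 971 in WT clones; limma-voom gave 1272 and 1325 in KO clones and 1335 and 1491 in WT clones, and moved the KO median change from 0.05 to -0.06. With only the libraries of a genotype 1293 genes were called in KO clones, and leaving 1 library out gave 1110 to 3465 in KO clones (lowest without KO clone 66 without 4-OHT, highest without KO clone 69 with 4-OHT) and 807 to 2573 in WT clones (lowest without WT clone 54 without 4-OHT). Between genotypes with 4-OHT, 825 genes were called without KO clone 69 with 4-OHT, which leaves the shallowest library as the only KO library, assumed to vary like the WT libraries, and 0 without any other; without 4-OHT the counts were 0 to 5, and 3 with all 8 libraries.

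Sign changes occurred only among changes that were not called in the fits of the report. With 1 library left out, CCND1 ranged from -0.18 to 0.23 for KO against WT with 4-OHT, from -0.25 to 0.24 without it and from -0.21 to 0.28 for the difference of the 4-OHT changes. CCND3 ranged from -0.23 to 0.17 for 4-OHT in KO clones and from -0.027 to 0.26 for KO against WT without 4-OHT, CDKN2B from -1.07 to 0.023 for KO against WT with 4-OHT, and CDKN2C from -0.31 to 0.27 for KO against WT without 4-OHT and from -0.40 to 0.18 for the difference. CCNE2 ranged from -0.31 to 0.26 for KO against WT without 4-OHT and from -0.51 to 0.12 for the difference, and TFDP1 from -0.12 to 0.19 for 4-OHT in WT clones. Under median-ratio scaling CCND1 was at -0.008 (KO against WT with 4-OHT), 0.013 (without it) and -0.031 (difference), and TFDP1 at -0.072. With limma-voom CCND1 was at 0.048 (KO against WT without 4-OHT) and -0.05 (difference), CCNE2 at 0.333 (KO against WT without 4-OHT) and TFDP1 at -0.091. With limma-voom and the block, CCND1 was at -0.104 (difference) and TFDP1 at -0.063. With limma-voom on all 8 libraries, CCND1 was at 0.074 and CCNE2 at 0.247 (KO against WT without 4-OHT). With limma-voom and the shallowest library left out, CCND3 was at 0.071 (4-OHT in KO clones), CDKN2B at 0.054 and CCND1 at -0.075 (KO against WT with 4-OHT), CDKN2C at 0.043, CCND1 at -0.071 and CCNE2 at 0.138 (difference), and TFDP1 at -0.085. The last 3 kinds of limma-voom fit were chosen after the data were seen. The causes were not tested. CDKN1C and CCNE1 did not reach the read filter in any comparison, and the order of levels per coding length was not run.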
